A study of Mus musculus with 12 samples.

Results

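The genes of the Fos and Jun families, which encode the subunits of the transcription factor AP-1, were followed in RNA sequencing data from the cortex and the hippocampus of mice after cranial irradiation. They were taken as the rows whose symbol is *Fos*, *Fosb*, *Fosl1*, *Fosl2*, *Jun*, *Junb* or *Jund*, 7 of the 23183 genes listed, and 6 of them passed the filter on low values in each tissue. All libraries came from male C57BL/6 mice, bought at 7 weeks of age and kept for 1 week before use. The control group (Con) was sham-irradiated and the treated group (IR) received X-rays to the head in a single dose of 10 Gy, and tissue was taken 3 months later. The study also ran open-field and elevated plus maze tests on mice of both groups 3 months after irradiation. Whether the sequenced mice were among those tested, and how long before the tissue was taken, is not given. Both groups were represented by 3 libraries in either tissue, which makes 12. The sources used here do not say whether each library is a separate animal or whether libraries with the same number in the 2 tissues share a mouse, so the p-values measure only the spread between these libraries.

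AP-1 is a dimer of a Jun protein with a Fos protein or with another Jun protein, and it binds short DNA elements in promoters and enhancers. *Fos*, *Fosb* and *Junb* are immediate-early genes: in neurons their transcription starts quickly after synaptic activity through kinases that act on the factors CREB and SRF, and their mRNAs are short-lived. In the brain, *Fos* is widely used as a marker of recently active neurons, and a long-lived truncated splice form of FosB builds up with repeated stimulation. Values given per gene, as here, cannot separate that splice form from full-length FosB.

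All 7 genes were placed on GRCm38 with GENCODE M21. *Fos* lies at chr12:85473890-85477273 on the plus strand and *Fosb* at chr7:19302696-19310051 on the minus strand, each with 4 exons in its longest coding transcript. *Fosl1* at chr19:5447547-5455946 and *Fosl2* at chr5:32135801-32157842, both on the plus strand, also have 4 exons. The Jun genes consist of 1 exon each, *Jun* at chr4:95049034-95052222 and *Junb* at chr8:84974484-84978718 on the minus strand, and *Jund* at chr8:70698949-70700616 on the plus strand. *Junb* is overlapped on the other strand by *Prdx2*, which was at 156 to 179 FPKM in the 12 libraries and whose log2 fold change between IR and Con was -0.04 for the cortex (adjusted p = 0.738). *Fosl1*, *Jun* and *Jund* also have a gene on the opposite strand. The library kit is directional, but the strand setting of the counting is not given in the sources used here, so reads of such partners could not be told apart.

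Promoters from RefSeq (GRCm38.p6) were matched for 6 of the 7 genes. The 150 bases before the start site are shown, 5′ to 3′ on the gene's strand, for the 4 genes whose IR libraries all lay above Con in the cortex and for *Jun*, whose did not. Capitals mark matches to 4 motifs searched on both strands: TGACG, the core of the element bound by CREB; GCGNGGGCG, a site of EGR factors; CCAAT; and the TATA box TATAAA.
Fos (chr12:85473740-85473889, plus strand): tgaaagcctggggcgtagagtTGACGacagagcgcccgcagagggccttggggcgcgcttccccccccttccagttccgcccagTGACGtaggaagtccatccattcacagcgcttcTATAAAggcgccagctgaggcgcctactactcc
Fosb (chr7:19310046-19310195, minus strand): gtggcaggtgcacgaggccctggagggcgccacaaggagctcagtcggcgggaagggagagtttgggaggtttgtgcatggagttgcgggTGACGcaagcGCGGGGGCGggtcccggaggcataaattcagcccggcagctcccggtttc
Fosl2 (chr5:32136322-32136471, plus strand): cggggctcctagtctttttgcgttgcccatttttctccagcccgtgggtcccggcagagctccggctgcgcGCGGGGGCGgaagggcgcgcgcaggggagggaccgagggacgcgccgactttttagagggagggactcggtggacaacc
Junb (chr8:84978749-84978898, minus strand): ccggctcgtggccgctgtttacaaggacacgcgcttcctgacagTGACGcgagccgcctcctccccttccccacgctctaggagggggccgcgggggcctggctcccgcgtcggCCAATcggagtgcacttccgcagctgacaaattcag
Jun (chr4:95052223-95052372, minus strand): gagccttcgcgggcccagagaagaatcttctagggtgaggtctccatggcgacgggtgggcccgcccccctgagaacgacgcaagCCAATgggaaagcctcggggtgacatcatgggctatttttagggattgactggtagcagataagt
The core TGACG was found in *Fos* at 129 and 66 bases before the start, in *Fosb* at 60 and in *Junb* at 106, and 20.8% of all 32851 promoter windows of this table held it. The EGR site was found in *Fosb* at 50 bases and in *Fosl2* at 79 bases before the start, and 5.55% of all windows held it. CCAAT, held by 37.4% of windows, was found in *Jun* and *Junb*. TATAAA, held by 13.6%, lay 33 bases before the start of *Fos* and directly at the RefSeq start of *Junb*, which is 30 bases before the GENCODE start. The full CREB element TGACGTCA, the AP-1 site TGANTCA and the CArG box bound by SRF, held by 1.79%, 7.81% and 1.63% of windows, had no match in any of the 6 windows of 300 bases. The windows reach only 250 bases before the start, so elements farther upstream were not searched, and a gene without a match here may have one there. The RefSeq start of *Jund* lies 1210 bases before its GENCODE start, and that of *Fosl2* 671 bases after it, so these windows cover only 1 of the possible starts. A match is a description of the letters and not a measured binding site.

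The values are FPKM (fragments per kilobase of transcript, relative to the mapped fragments of the library). They summed to between 359773 and 393447 per library, and the steps between the lowest values put the depth at about 15800000 to 17900000 fragments per library. At this depth *Fos* rested on about 157 to 1209 fragments in the cortex and on only 45 to 191 in the hippocampus. The tissue labels were checked against 7 marker genes each. Cortex markers summed to 203 to 266 FPKM in cortex and to 49.4 to 53.5 in hippocampus libraries, and hippocampus markers to 58.8 to 85.2 and 246 to 280, respectively. The value columns are named differently for the 2 tissues, so a difference in level between tissues cannot be told apart from one between processing runs. In whole tissue, fewer cells of a type and less RNA per cell cannot be told apart either.

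FPKM are scaled by length, so levels can be ordered between genes. In the cortex of Con mice the order of mean FPKM was *Jund* (77.9 ± 8.84), *Junb* (43.1 ± 13.9), *Jun* (17.6 ± 1.34), *Fos* (11.2 ± 5.77), *Fosl2* (6.13 ± 1.95) and *Fosb* (3.28 ± 0.505; SD, n = 3 throughout). Of these neighbours, only *Fos* and *Fosl2* overlapped between libraries. In the hippocampus of Con mice the order was *Jund* (64.5 ± 7.86), *Jun* (48.2 ± 4.03), *Junb* (26.9 ± 4.12), *Fosl2* (8.61 ± 0.786), *Fos* (2.47 ± 0.988) and *Fosb* (2.43 ± 0.971), and only *Fos* and *Fosb* overlapped. *Fosl1*, which encodes Fra-1, was listed at 0 in all 12 libraries, where a single fragment would be worth about 0.03 to 0.0339 FPKM. It was not tested.

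**Figure D1:**
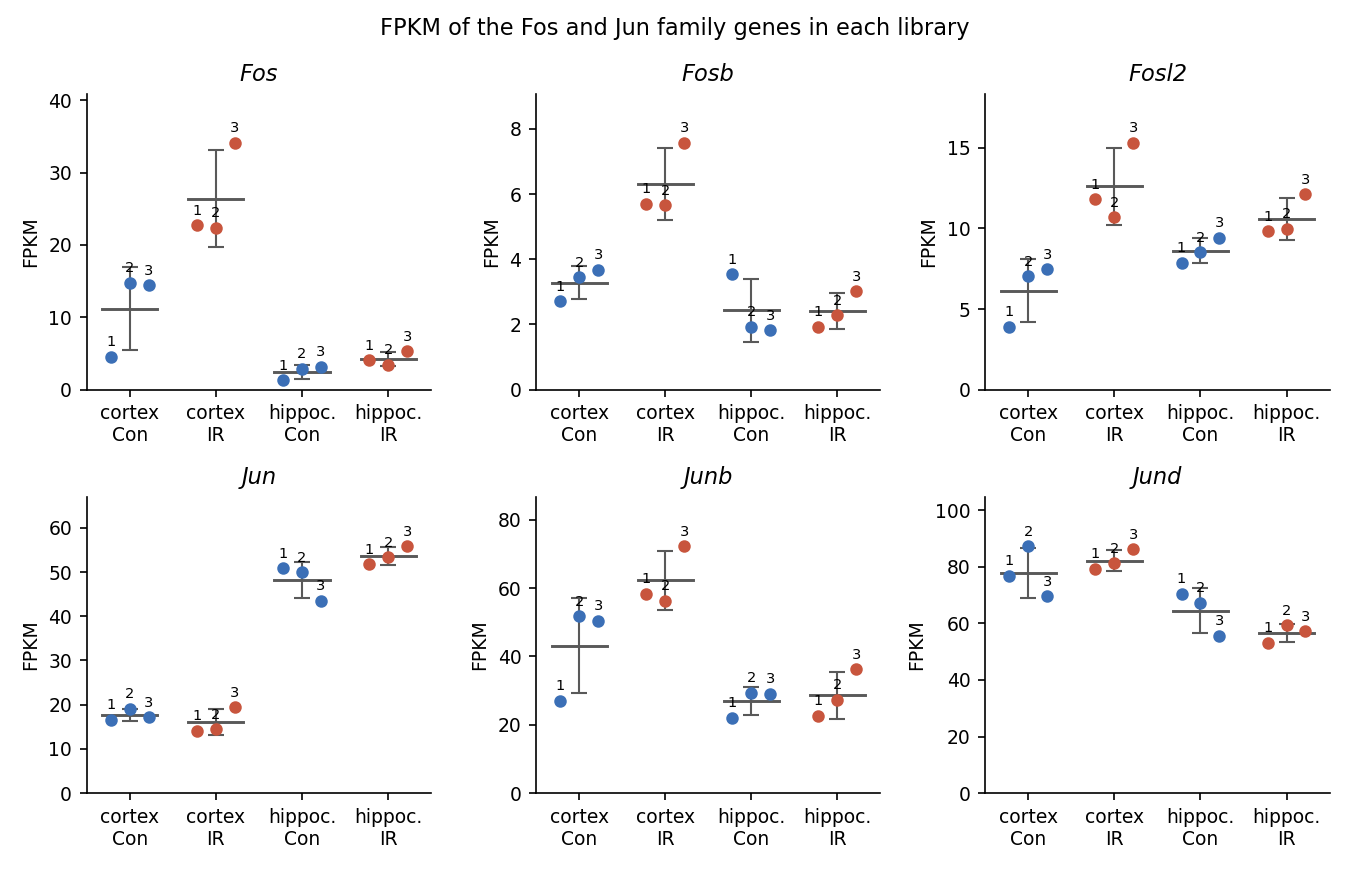
FPKM of 6 Fos and Jun family genes (linear axes from 0) in the Con (blue) and IR (red) libraries of the cortex and the hippocampus, numbered 1 to 3; bars are the mean and SD of 3 libraries. In the cortex all IR libraries lie above all Con libraries for *Fos*, *Fosb*, *Fosl2* and *Junb*, and *Jun* is about 3 times as high in the hippocampus as in the cortex.

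The make-up of the families differed between the tissues in every library. *Fos* held 41.0% to 59.9% of the summed FPKM of the Fos family in the cortex but 10.5% to 25.9% in the hippocampus, where *Fosl2* held 59.3% to 65.3%. *Jund*, which encodes a Jun protein known for steady expression, was the leading Jun gene in all libraries with 38.4% to 63.8% of the family. *Jun* held 9.28% to 13.7% of it in cortex and 34.0% to 40.6% in hippocampus libraries. These shares were not tested between tissues because of the processing named above.

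The first question was which of these genes differed between IR and Con in the cortex. *Fos*, *Fosb*, *Fosl2* and *Junb* were higher in every IR library than in every Con library, whereas *Jun* and *Jund* overlapped between the groups. *Fosb* was the only one with an adjusted p under 0.05 (limma on log2(FPKM + 1), Benjamini-Hochberg over all 14065 genes tested).

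*Fosb*, whose product pairs with Jun proteins, was listed at 2.71, 3.45 and 3.68 FPKM in the Con libraries 1 to 3 and at 5.70, 5.65 and 7.57 FPKM in the IR libraries 1 to 3. The groups did not overlap, and every IR value was more than 1.5 times the highest Con value. The fitted fold was 1.70 (log2 fold change 0.77, SE 0.123, 95% interval 0.49 to 1.04; adjusted p = 0.0303). This call was close to the threshold, with an adjusted p of 0.0507 without Con 1 and of 0.0507 to 0.0891 when any of the 6 libraries was left out. The log2 fold change was 0.65 to 0.84 in these fits. Of the other settings tried, 3 gave it an adjusted p of 0.0683 to 0.0929.

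*Fos* was listed at 4.58, 14.8 and 14.4 FPKM in Con and at 22.7, 22.4 and 34.1 FPKM in IR. Con 1 was at 0.314 of the mean of the other Con libraries, and IR 3 was the highest library. The fitted fold was 2.43 (log2 fold change 1.28, SE 0.499, 95% interval -0.04 to 2.61), larger than that of *Fosb* but with a wider spread, and did not pass (adjusted p = 0.367). Without Con 1 the fold was 1.73 and its interval narrowed to 0.40 to 1.18 on the log2 scale, still with an adjusted p of 0.120.

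*Fosl2*, which encodes Fra-2, was listed at 3.90, 7.03 and 7.47 FPKM in Con and at 11.8, 10.7 and 15.3 FPKM in IR. Con 1 was again the lowest and IR 3 the highest library. The fitted fold was 1.94 (log2 fold change 0.96, SE 0.221, adjusted p = 0.135), and without Con 1 it was 1.63 (adjusted p = 0.0507). In a single fit over the 12 libraries *Fosl2* passed (adjusted p = 0.0418).

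*Junb*, an early-response member of the Jun family, was listed at 27.0, 51.7 and 50.5 FPKM in Con and at 58.4, 56.3 and 72.2 FPKM in IR. The groups did not overlap, but Con 2 and IR 2 were close. The fitted fold was 1.49 with Con 1 and 1.21 without it, or 0.57 and 0.27 on the log2 scale (adjusted p = 0.443 and 0.286).

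*Jun*, which encodes a Jun protein that pairs with Fos proteins or with other Jun proteins, was listed at 16.6, 19.1 and 17.2 FPKM in Con and at 14.1, 14.5 and 19.4 FPKM in IR. IR 1 and IR 2 lay below all Con libraries and IR 3 above them. The log2 fold change was -0.14 (95% interval -0.39 to 0.10, adjusted p = 0.610). Without IR 3 it was -0.28 (adjusted p = 0.216), and without IR 1 it was -0.06. *Jund* was listed at 76.9, 87.2 and 69.6 FPKM in Con and at 79.3, 81.3 and 86.2 FPKM in IR, with a log2 fold change of 0.08 (95% interval -0.09 to 0.26, adjusted p = 0.683). It was 0.17 without Con 2 and 0.01 without Con 3. For both, the interval over all 6 libraries leaves room for a small change in either direction, but not for one of 1.5-fold.

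Set against all genes tested in the cortex, 1 of the 6 AP-1 genes had an adjusted p under 0.05, where 0.725% of all genes did. At an unadjusted p under 0.05 there were 2 (*Fosb* and *Fosl2*), where 14.1% of all genes passed, and the same genes passed the criterion of a fold of at least 1.5 with an unadjusted p under 0.05, which 0.483% of all genes met (1.87% when the fold was taken from mean FPKM, where the same number of AP-1 genes passed). Without Con 1, 4 AP-1 genes had an unadjusted p under 0.05, with *Fos* and *Junb* added, where 13.2% of the 13942 genes then tested passed, and 3 met the criterion, with *Fos* added, where 0.552% did. The IR libraries were all above Con in 4 of the 6 genes and in 11.2% of all genes. With so few genes, chosen with earlier results of these data known, these shares describe them and are no test.

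In the hippocampus the fitted differences of *Fos*, *Fosb*, *Fosl2* and *Junb* were smaller than in the cortex, and those of *Jun* and *Jund* were small in both tissues. *Fos*, *Fosl2* and *Jun* were higher in every IR library than in every Con library, *Fosb*, *Junb* and *Jund* overlapped, and none had an adjusted p under 0.05 over the 14043 genes tested.

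*Fos* was listed at 1.34, 2.87 and 3.19 FPKM in Con and at 4.03, 3.46 and 5.31 FPKM in IR. As in the cortex, Con 1 was the lowest and IR 3 the highest library, and IR 2 exceeded Con 3 by little. The fitted fold was 1.55 (log2 fold change 0.63, SE 0.225, 95% interval 0.12 to 1.15; adjusted p = 0.313) and fell to 1.29 without Con 1 (adjusted p = 0.534).

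*Fosl2* was listed at 7.86, 8.53 and 9.43 FPKM in Con and at 9.81, 9.97 and 12.1 FPKM in IR. The groups were apart by a narrow gap between Con 3 and IR 1. The log2 fold change was 0.27 (SE 0.0996, 95% interval 0.04 to 0.50; adjusted p = 0.321).

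*Fosb* was listed at 3.55, 1.93 and 1.82 FPKM in Con and at 1.93, 2.28 and 3.02 FPKM in IR. Here Con 1 was the highest of the 6 libraries, although the same library had the lowest *Fos*. The log2 fold change was 0.01 (95% interval -0.44 to 0.47, adjusted p = 0.983), and without Con 1 it was 0.23 (95% interval -0.11 to 0.57, adjusted p = 0.627).

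*Jun* was listed at 50.9, 50.0 and 43.5 FPKM in Con and at 51.7, 53.3 and 55.8 FPKM in IR. The values of Con 1 and IR 1 differed by under 1 FPKM, and the log2 fold change was 0.15 (95% interval -0.02 to 0.33, adjusted p = 0.403), or 0.08 without Con 3. *Junb* was listed at 22.1, 29.4 and 29.1 FPKM in Con and at 22.6, 27.4 and 36.2 FPKM in IR, and its log2 fold change of 0.08 (adjusted p = 0.860) turned to -0.05 without Con 1. *Jund* was listed at 70.5, 67.3 and 55.6 FPKM in Con and at 53.1, 59.4 and 57.2 FPKM in IR. Its log2 fold change was -0.18 (95% interval -0.40 to 0.04, adjusted p = 0.426), with IR 2 and IR 3 within the range of Con. It was -0.28 without Con 3 (adjusted p = 0.0524) and -0.11 without Con 1.

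None of the 6 genes passed an adjusted p under 0.05 in the hippocampus, where 0.0285% of all genes did. At an unadjusted p under 0.05 there were 2 (*Fos* and *Fosl2*), where 13.9% of all genes passed. *Fosl2* no longer passed without Con 1, Con 2 or IR 3 (log2 fold change 0.22, 0.27 and 0.18), and without Con 1 the 2 genes were *Fos* and *Jun*. In the single fit over the 12 libraries and without IR 3, neither *Fos* nor *Fosl2* passed. *Fos* alone met the criterion of a fold of at least 1.5 with an unadjusted p under 0.05, which 0.527% of all genes met (1.73% when the fold was taken from mean FPKM), and it no longer did without Con 1 or without IR 3. The IR libraries were all above Con in 3 of the 6 genes and in 10.5% of all genes.

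**Figure D2:**
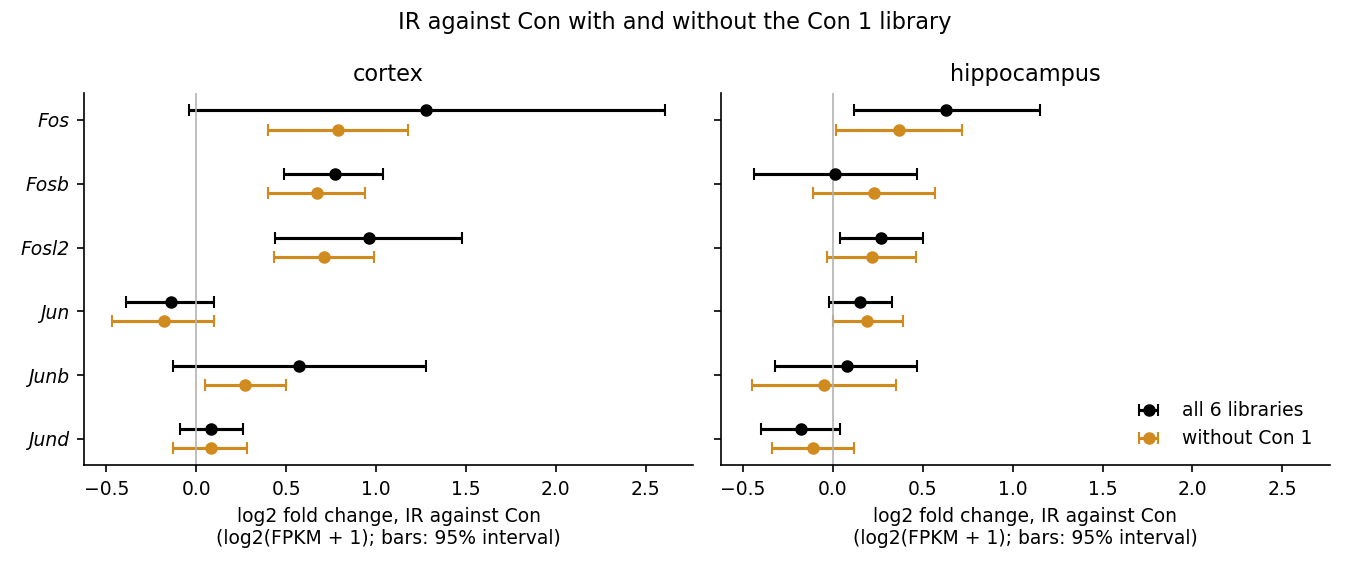
Log2 fold change of IR against Con on the log2(FPKM + 1) scale for 6 AP-1 genes in the cortex and the hippocampus, from limma with all 6 libraries of a tissue (black) and without the Con 1 library (orange); bars are 95% intervals. In the cortex leaving out Con 1 moves *Fos* from 1.28 to 0.79 and *Junb* from 0.57 to 0.27 and narrows their intervals, while *Fosb* moves from 0.77 to 0.67.

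Whether the change differed between the tissues was tested as the interaction over the 12 libraries. The difference of the log2 fold changes, hippocampus minus cortex, was -0.76 for *Fosb* (95% interval -1.31 to -0.20) and -0.69 for *Fosl2* (95% interval -1.25 to -0.12). Neither passed the adjusted test (adjusted p = 0.363 and 0.406), and no other AP-1 gene did, where 0.083% of 14459 genes passed. At an unadjusted p under 0.05, *Fosb* and *Fosl2* passed, as did 10.4% of all genes. *Fosb* no longer did without both Con 1 libraries, nor did *Fosl2* without IR 3 of the cortex (difference -0.55) or Con 3 of the hippocampus (-0.62). For *Fos* the difference was -0.65, with a wide interval of -1.90 to 0.61 (adjusted p = 0.707). Their size depended on the Con 1 libraries. The difference of *Fos* was -0.16 without Con 1 of the cortex, -0.91 without Con 1 of the hippocampus and -0.42 without both. That of *Fosl2* was -0.43, -0.74 and -0.49 under the same settings, and that of *Fosb* -0.66, -0.53 and -0.43, and none of these had an adjusted p under 0.05. *Jun* was the only one of the 6 with a positive difference, at 0.30 (95% interval -0.02 to 0.61, adjusted p = 0.506). It passed an unadjusted p under 0.05 after quantile normalization (0.37), without IR 3 of the cortex (0.43) and without both Con 1 libraries (0.38). *Jund* did so without Con 2 of the cortex (-0.35) or Con 3 of the hippocampus (-0.36). None of these had an adjusted p under 0.05. A different response in the 2 tissues was therefore not shown for any AP-1 gene.

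The sham library 1 was examined further because it stood apart in both tissues. In the cortex Con 1 was the lowest of the 3 Con libraries for 5 of the 6 AP-1 genes, *Jund* excepted, while it was the lowest for 28.2% of all genes tested and its median ratio to the other Con libraries was 1.00. For *Fos*, 35 of the 14065 genes tested (0.249%, *Fos* included) had as low a ratio of Con 1 to the mean of the other Con libraries or a lower one on plain FPKM. Among 25 other early-response genes, Con 1 was the lowest for 18 in the cortex and for 17 among the hippocampus libraries, where 32.9% of all genes had Con 1 as the lowest. For the AP-1 genes of the hippocampus it was the lowest for 3 (*Fos*, *Fosl2* and *Junb*) and the highest for 3 (*Fosb*, *Jun* and *Jund*).

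The IR library 3 stood at the other end. It was the highest of the IR libraries for 6 of 6 AP-1 genes in the cortex, where it was the highest for 32.5% of all genes, and for 5 of 6 in the hippocampus, where it was the highest for 37.4%. It was also the highest for 21 and 17 of the 25 other early-response genes. Since the libraries carry no order and no record that links tissues to a mouse, these are counts only.

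Ratios between members within a library removed the overall level and showed how their balance differed. In the cortex *Fos* was 3.92 to 4.50 times *Fosb* in 5 libraries, Con and IR alike, but only 1.69 times in Con 1. In the hippocampus it was 1.48 to 2.09 times *Fosb* in 5 libraries and 0.377 times in Con 1. The ratio of *Fos* to *Fosl2* was also lowest in Con 1, with 1.93 to 2.23 in 5 cortex libraries against 1.18 in Con 1, and 0.336 to 0.437 in 5 hippocampus libraries against 0.171 in Con 1. Outside Con 1, the ratio of *Fos* to *Fosb* overlapped between Con and IR in either tissue, although the level of each of them in the cortex did not. The ratio of *Fos* to *Fosl2* overlapped in the cortex, but in the hippocampus it was 0.336 and 0.338 in Con 2 and Con 3 and 0.347 to 0.437 in IR. *Fos* to *Junb* did not overlap in either tissue. It was 0.17 to 0.285 in Con and 0.389 to 0.472 in IR for the cortex, and 0.0606 to 0.11 and 0.126 to 0.179 for the hippocampus. *Fos* to *Jund* was also apart in both tissues, narrowly in the hippocampus (0.019 to 0.0574 and 0.0583 to 0.0927). *Fos* to *Jun* was apart in the cortex and overlapped in the hippocampus outside Con 1. These ratios were not tested.

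**Figure D3:**
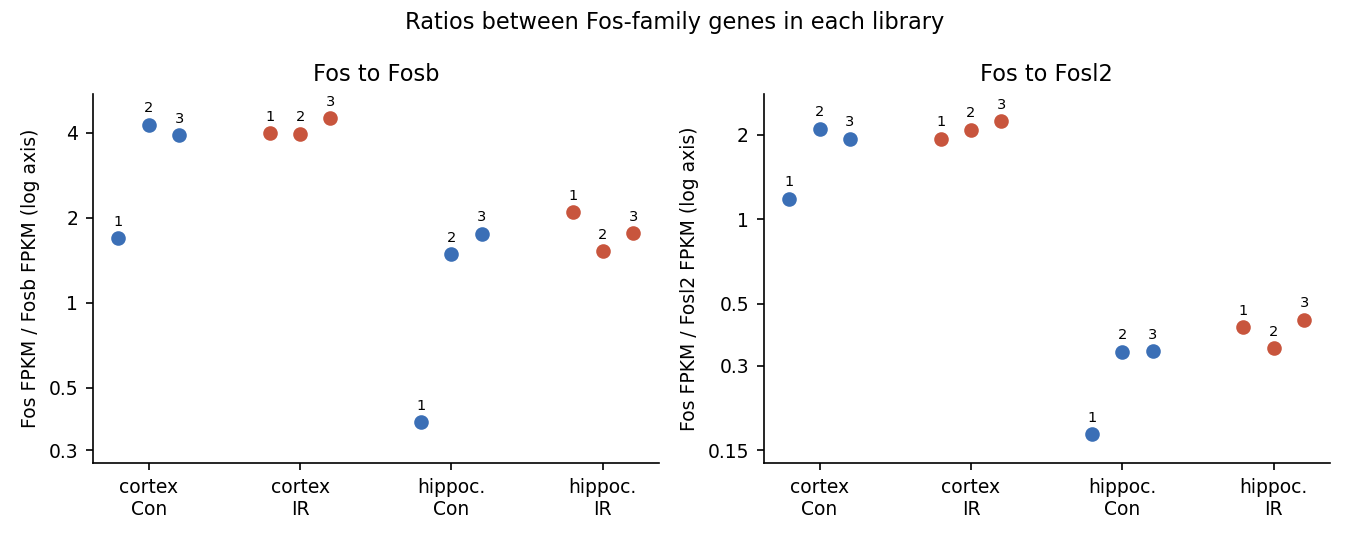
Ratio of the FPKM of *Fos* to that of *Fosb* (left) and of *Fosl2* (right) in each library, on log axes; blue is Con, red is IR, and numbers are library numbers. Con 1 has the lowest ratio of its tissue in all 4 cases, with 1.69 and 1.18 for the cortex and 0.377 and 0.171 for the hippocampus.

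The balance of the 2 families did not overlap between the groups in the cortex, and Con 1 was the farthest library. The summed FPKM of *Jun*, *Junb* and *Jund* was 10.8, 6.26 and 5.37 times that of the Fos family in the Con libraries and 3.78, 3.92 and 3.12 times in the IR libraries. In the hippocampus the ratio was 11.3, 11.0 and 8.88 in Con and 8.08, 8.91 and 7.29 in IR, with IR 2 just above Con 3. The ratio was not tested, and with 3 libraries against 3 an exact permutation test could not give a p below 0.1.

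Whether the genes moved together was asked within the groups, so that the difference between Con and IR or between tissues did not enter. Each value was taken as its deviation from the group mean on the log2(FPKM + 1) scale, and libraries were permuted within groups (1296 exact, two-sided permutations, 5 pairs adjusted together). *Fosl2* followed *Fos* over the 12 libraries with r = 0.94 (exact permutation p = 0.0054, adjusted 0.0231; rho = 0.92, p = 0.00617). *Junb* followed it with r = 0.93 (exact permutation p = 0.00926, adjusted 0.0231; rho = 0.83). The libraries were permuted in each tissue on its own, whereas the deviation of *Fos* had the same sign in both tissues for all 6 pairs of same-numbered libraries of a group. With the numbers kept together across tissues (36 arrangements, a test added after seeing the data), the exact permutation p was 0.0556 for *Fosl2* and 0.111 for *Junb* (adjusted 0.278 for both). The smallest p that 36 arrangements can give is 0.0278, so 1 or 2 pairs could not pass the adjusted test in this form, and it does not show that the relations are absent. The sources used here do not say whether the tissues share mice. The other pairs did not pass with the 1296 permutations, where *Jun* had r = 0.37, *Fosb* r = 0.15 and *Jund* r = -0.12 (exact permutation p = 0.259, 0.6 and 0.843).

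The 2 libraries farthest from the median of *Fos* were Con 1 of each tissue. Without them r was 0.93 for *Fosl2*, 0.84 for *Junb* and 0.50 for *Fosb* with the deviations kept as they were. When the group means were taken anew without these libraries (10 libraries), r was 0.94 for *Fosl2*, 0.76 for *Junb* and 0.84 for *Fosb*, and none of the 5 pairs passed the adjusted exact permutation test (adjusted p = 0.156 for each of these 3). Taken within a tissue (6 libraries, 36 permutations), *Fosl2* had r = 0.98 for the cortex and 0.83 for the hippocampus, and *Junb* 1.00 and 0.78. *Fosb* had r = 0.86 for the cortex but -0.56 for the hippocampus. These are given as a description, since 36 permutations cannot give an exact p below 0.0278.

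**Figure D4:**
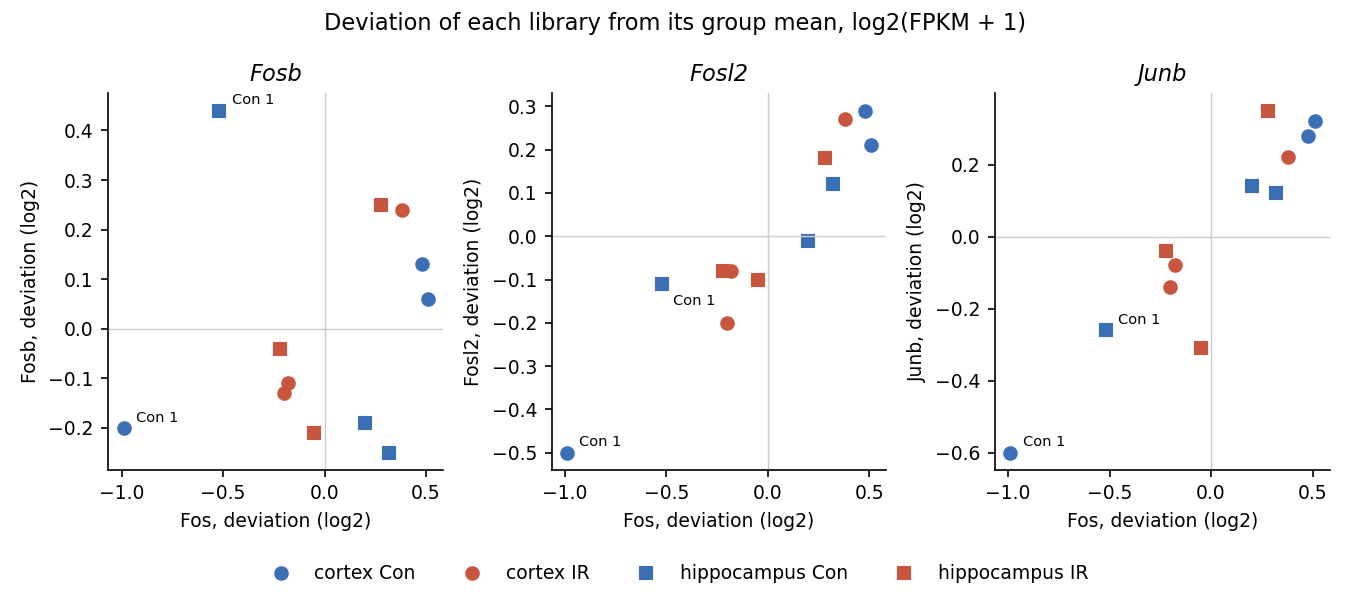
Deviation of *Fosb*, *Fosl2* and *Junb* (vertical) against that of *Fos* (horizontal) from the mean of the library's group, on the log2(FPKM + 1) scale; circles are cortex, squares hippocampus, blue Con and red IR. *Fosl2* and *Junb* lie along a rising line (r = 0.94 and 0.93 over 12 libraries), whereas *Fosb* in the hippocampus Con 1 library lies far above the others at a low *Fos*.

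A ranking of all genes by likeness to *Fos* gave a similar picture. Over the 12 libraries, centred within tissue so that the difference between Con and IR was kept in, 13648 genes were ranked by Pearson's r, which is a description here since the libraries share depth and group. The 5 highest outside the AP-1 genes were *Arc* (0.962), which encodes a synaptic protein induced by activity, *Egr2* (0.959), *Dpy19l3* (0.948), *Zfp276* (0.944) and *Dusp6* (0.932), which encodes a phosphatase of ERK. *Fosl2* ranked 2nd among all genes and *Junb* 13th, while *Fosb* ranked only 678th with r = 0.603, *Jun* 5399th and *Jund* 7445th. Without both Con 1 libraries *Fosb* ranked 3rd with r = 0.953 and *Fosl2* 2nd with 0.974, whereas *Junb* ranked 529th with 0.690. The place of *Fosb* and of *Junb* beside *Fos* thus turned on these 2 libraries, and that of *Fosl2* did not.

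The genes around AP-1 were counted from lists, beside the median log2 fold change of all genes tested, which was 0.002 (cortex) and -0.01 (hippocampus). Of 26 genes of kinases and factors that act upstream of *Fos* and *Jun*, 4 were higher and 2 lower in IR at an unadjusted p under 0.05 in the cortex (median 0.00) and 5 were higher in the hippocampus (median 0.05). At this p, 14.1% and 13.9% of all genes passed in these tissues, so the counts are read beside those shares. *Crem*, which encodes a factor that binds the same element as CREB, rose in the cortex from 5.09, 6.09 and 5.75 FPKM in Con to 8.83, 7.99 and 8.09 FPKM in IR (log2 fold change 0.49, adjusted p = 0.0321). It was the only one of the 26 with an adjusted p under 0.05, where 0.725% of all genes in the cortex passed. *Srf*, which encodes the factor of the CArG box, was at 14.1, 17.5 and 15.6 FPKM in Con and at 19.6, 17.9 and 19.0 FPKM in IR there (log2 fold change 0.25, adjusted p = 0.210). *Creb1* differed little (log2 fold change 0.08, adjusted p = 0.654).

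Of 15 genes of other proteins that pair with Fos or Jun proteins, 11 were tested. In the cortex 2 rose with an adjusted p under 0.05, where 0.725% of all genes passed. No other passed an unadjusted p under 0.05, where 14.1% of all genes did. *Jdp2*, which encodes a Jun dimerization protein known as a repressor, went from 29.3, 25.1 and 25.8 FPKM in Con to 40.0, 36.6 and 33.3 FPKM in IR (log2 fold change 0.44, adjusted p = 0.0444). *Mafg*, which encodes a small Maf protein, went from 21.4, 22.6 and 21.5 FPKM to 27.5, 27.3 and 27.0 FPKM (log2 fold change 0.31, adjusted p = 0.0359). In the hippocampus both overlapped between the groups, with log2 fold changes of -0.24 and -0.16 (adjusted p = 0.465 and 0.434). There *Mafk* was lower in all IR libraries (log2 fold change -0.60) without passing (adjusted p = 0.255). It was the only gene of this list at an unadjusted p under 0.05, where 13.9% of all genes passed. No gene of this list had an adjusted p under 0.05, where 0.0285% of all genes did.

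Of 18 genes known as targets of AP-1 or of FosB, 13 were tested. *Ccnd1*, which encodes cyclin D1, rose in the cortex from 11.2, 11.3 and 9.23 FPKM in Con to 15.8, 15.1 and 13.7 FPKM in IR (log2 fold change 0.46, adjusted p = 0.0466). *Penk*, the precursor of enkephalins, was the only other one at an unadjusted p under 0.05 there (log2 fold change 0.38, adjusted p = 0.347), and the median of the list was 0.02. In the hippocampus 7 of the 13 had a positive log2 fold change, none of them at an unadjusted p under 0.05, and none of the 13 had an adjusted p under 0.05. *Ccnd1* was at 18.3, 17.7 and 16.1 FPKM in Con and at 18.6, 18.4 and 20.8 FPKM in IR there (log2 fold change 0.15, adjusted p = 0.416). *Plau*, which encodes a plasminogen activator, was also above Con in all IR libraries (log2 fold change 0.14, adjusted p = 0.562). *Gria2*, which encodes an AMPA receptor subunit, was below Con in all IR libraries (log2 fold change -0.22, unadjusted p = 0.0109, adjusted p = 0.278). It was the only one of the 13 at an unadjusted p under 0.05 there, where 13.9% of all genes passed.

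The 25 other early-response genes, which share activity-driven induction with *Fos*, stood out in the cortex. There 19 were higher in IR at an unadjusted p under 0.05 and none lower, where 14.1% of all genes passed in either direction, and the median log2 fold change was 0.59. An adjusted p under 0.05 was reached by 6 of the 25, and by 0.725% of all genes. Among them, *Egr3* was at 34.2, 35.7 and 37.8 FPKM in Con and 75.1, 66.8 and 72.9 FPKM in IR (log2 fold change 0.97, adjusted p = 0.000185). The others of the 6 were *Ier5* (log2 fold change 0.59, adjusted p = 0.00497), *Homer1* (0.84, 0.004), *Nptx2* (0.58, 0.0244), *Klf4* (0.63, 0.0353) and *Bdnf* (0.59, 0.0106), the gene of a neurotrophin. In *Egr3*, *Homer1*, *Bdnf* and *Ier5* Con 1 lay close to the other Con libraries, whereas in *Arc* (26.4, 73.2 and 86.6 FPKM in Con, 179, 162 and 192 FPKM in IR) and *Egr1* (49.9, 93.3 and 96.9 FPKM in Con, 152, 161 and 193 FPKM in IR) it was low, as for *Fos*. In the hippocampus 1 was higher and 1 lower at an unadjusted p under 0.05, where 13.9% of all genes passed, none had an adjusted p under 0.05, and the median was 0.09.

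**Figure D5:**
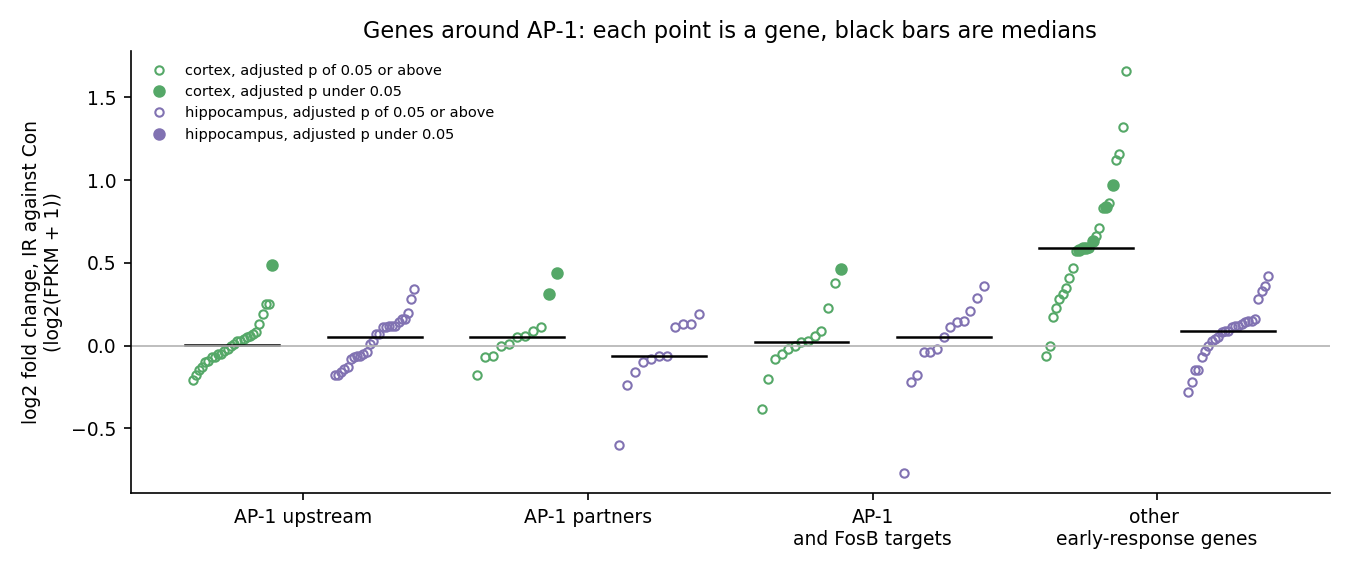
Log2 fold change of IR against Con on the log2(FPKM + 1) scale for every tested gene of 4 lists in the cortex (green) and the hippocampus (purple); filled points have an adjusted p under 0.05 and black bars are medians. The early-response genes in the cortex have a median of 0.59, and the medians of the other 7 groups lie between -0.06 and 0.09.

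Some cell type markers moved with the groups. Of 6 microglia markers, 3 were lower in IR at an unadjusted p under 0.05 in cortex and 5 in hippocampus libraries, where 5.94% and 6.89% of all genes were. At an adjusted p under 0.05, 1 was lower in the hippocampus, where 0.0142% of all genes were, and 0 in the cortex (0.164% of all genes). Their summed FPKM lay lower in IR, with 71.7 to 102 against 105 to 111 in Con in the cortex and 74.2 to 81.2 against 104 to 114 in the hippocampus. For comparison, single genes lay below Con in all IR libraries in 9.09% of cases in cortex and 9.36% in hippocampus libraries. The sum of 5 endothelium markers lay above Con, with 80.7 to 91.5 against 61.0 to 74.4 in the cortex and 69.0 to 71.9 against 53.3 to 61.6 in the hippocampus. Markers of oligodendrocytes summed to 1215 to 1472 in IR against 968 to 1198 in Con in the cortex and overlapped in the hippocampus. Of the 5 oligodendrocyte markers in the hippocampus, 2 (*Mog* and *Mag*) were lower in IR at an unadjusted p under 0.05 and 0 were higher. Single genes lay above Con in all IR libraries in the 11.2% and 10.5% of cases given above. The sums for neurons, astrocytes, meninges, striatum, choroid plexus, blood and T cells overlapped between the groups in both tissues. The 6 choroid plexus genes summed to 4.57 to 438 FPKM in cortex libraries and to 22.2 to 1646 FPKM in hippocampus libraries. An overlapping sum can hide single genes. Of 5 astrocyte markers in the hippocampus, 0 had a positive log2 fold change, and 2 were lower at an unadjusted p under 0.05. These were *Gja1* (log2 fold change -0.20, adjusted p = 0.299) and *Aldh1l1* (-0.16, adjusted p = 0.357), both below Con in all IR libraries. In the cortex 0 of the 5 passed this unadjusted p. In the hippocampus Con 1 library, where *Fosb* was highest, 6 T cell genes summed to 1.01 FPKM against at most 0.247 in IR libraries, and none of them passed the filter on low values. Of the blood genes in that library, *Alas2*, a gene of red blood cell precursors, was at 22.5 FPKM against 0.773 to 1.34 FPKM in the other 5 hippocampus libraries, whereas *Hba-a1*, a globin gene, was at 9.83 FPKM, the lowest of the 6. The part of these cells in the values of the AP-1 genes was not tested.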

How the data were processed

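RNA from the cortex and the hippocampus was represented by 12 libraries, whose tissue, group and number were taken from their labels. The values are FPKM as deposited, which the authors made from paired-end reads: FASTX_Trimmer and BBMap were used for trimming and TopHat for alignment (to mm10, per the submitters' processing notes), and Cufflinks gave the FPKM. The authors also name a geometric normalization of read counts, which they place in edgeR. Whether it was applied to the deposited FPKM is not stated. The labels name Trizol and total RNA, the methods of the study an RNeasy Lipid kit and poly(A) selection. Counts were not used here. The depth was estimated from the steps between the lowest FPKM, multiplied by the length of genes with a single transcript, and is approximate.

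A gene was tested in a tissue when 3 or more of its 6 libraries reached 0.5 FPKM. Values were transformed to log2(FPKM + 1), so that fold changes of low genes are understated, and IR was compared with Con separately per tissue by limma 3.58.1 (R 4.3.3, trend and robust prior), which gave the 95% intervals, unadjusted p and Benjamini-Hochberg adjusted p over all tested genes. The interaction of tissue and irradiation was fitted over the 12 libraries for genes that passed in at least 1 tissue. A p from limma is named as adjusted or unadjusted, and other p-values come from exact permutation. The fit was tested on simulated data with known changes. No further scaling was applied.

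The genes, lists and tests were chosen with earlier results of these data known. Named genes are the 7 AP-1 genes, those of the lists (upstream factors, partners, targets, early-response genes and cell type markers) and the 5 with the highest r to *Fos*. *Prdx2* was chosen because it overlaps *Junb*. Gene positions are from GENCODE M21 and promoters from RefSeq. Plots used matplotlib 3.10.9 (Python 3.11.15).

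Alternatives tried were to drop the filter, a minimum of 1 FPKM in all libraries, 0.1 as the pseudocount, a fold taken as the ratio of mean FPKM, quantile normalization, limma without trend and robust prior, a single fit over the 12 libraries, the library number as a block, and leaving out each library. Leaving out both Con 1 libraries, and permuting the library numbers together in both tissues, were added after seeing the data. Protein sequences were not used here.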

Additional observations from a re-analysis of the deposited data

How the results depend on the processing

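In the cortex, *Fosb* was the only AP-1 gene with an adjusted p under 0.05, and it lost this call without a filter on low values, without trend and robust prior, and when any single library was left out, each of which gave 0 such genes (a range of 0 to 0 over the 6 libraries). A single fit over the 12 libraries again gave 1, but it was *Fosl2* (adjusted p = 0.0418) in place of *Fosb* (adjusted p = 0.0929). The library number as a block gave 2 (*Fosb*, and *Fosl2* with an adjusted p of 0.0479). Con and IR libraries with the same number did not deviate together within a tissue (r over genes from -0.109 to 0.108 in the cortex and from -0.393 to -0.085 in the hippocampus), so there they share only a number. Across tissues, same-numbered libraries of a group had r from -0.05 to 0.18 over 13649 genes. In the hippocampus, *Fos* was the only AP-1 gene at a fold of 1.5 and an unadjusted p under 0.05, and the single fit over the 12 libraries gave 0, as did leaving out Con 1 or IR 3 (range 0 to 1). The log2 fold change of *Fosb* there, 0.01, turned to -0.01 as a ratio of group means and 0.00 after quantile normalization, and ranged from -0.11 to 0.23 when single libraries were left out. That of *Junb*, 0.08, ranged from -0.10 to 0.23. Of the 5 relations with *Fos*, 2 passed; without both Con 1 libraries 0 did, with the numbers kept together across tissues 0 did (its smallest p, 0.0278, is too large for 2 pairs to pass), and when single libraries were left out 0 to 2 did, with 0 without Con 1 or IR 3 of either tissue. The r of *Fosb* with *Fos* ranged from -0.20 to 0.76 and that of *Jund* from -0.46 to 0.10 when single libraries were left out, and that of *Jund* was 0.11 without both Con 1 libraries. The genes at a fold of 1.5 and an unadjusted p under 0.05, 68 (cortex) and 74 (hippocampus), came to 263 and 243 with the ratio of group means and to 234 and 223 with a pseudocount of 0.1, and to 217 in the hippocampus without Con 3. In the cortex, 2 AP-1 genes met this criterion, and 3 did without a filter, without trend and robust prior, in the single fit, with the block and without Con 1. Over all genes, the 102 with an adjusted p under 0.05 in the cortex ranged from 16 to 107 under these settings, the 4 in the hippocampus from 0 to 880, and the 12 interactions from 0 to 487. No alternative gave an AP-1 gene an adjusted p under 0.05 in the hippocampus or in the interaction, and where a call changed the cause was not tested. *Fos* in the hippocampus had the lowest depth of the 6 tested genes in a single library, with about 45 fragments in Con 1, and reached 191 in IR 3. *Fosb* was close to it there, with about 117 to 213 fragments in Con and 131 to 195 in IR.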
